A study of Arabidopsis thaliana with 20 samples.

Results

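rbcL is the plastid gene for the large subunit of Rubisco, the enzyme that fixes carbon dioxide in photosynthesis. Its annotated span of 1440 bp and the 300 bp on each side were read in both depth tables. rbcL is 1 of 111 plastid genes of at least 70 bp, and the window touched 41 of the 2564 bins of 50 bp into which the plastid genome was divided, at positions 54651 to 56700 of the TAIR10 plastid sequence. The assay was in vivo protein occupancy display, in which protein is crosslinked to DNA, and the DNA recovered with protein (IPOD) is sequenced beside unfractionated DNA (input). It was run on 20 libraries of Arabidopsis thaliana. The leaf group had 4 IPOD and 4 input libraries of wild-type Col0, an Arabidopsis accession, from pooled rosette leaves of plants aged 14 days on soil. The pTAC3 and the Col0 seedlings had 3 IPOD and 3 input libraries each, from pooled seedlings of about 4 days grown on plates in continuous light. Crosslinking lasted 4 h in 4% formaldehyde throughout, and was done on isolated chloroplasts for the leaf libraries but on whole seedlings, before chloroplast isolation, for the others. The pTAC3 libraries bear that name in their titles and ptac3 as cell line, while their genotype label reads wild type and no allele is given. The third Col0 IPOD library has Col0 in its title and ptac3 as cell line. It was kept with Col0, and the Col0 and genotype values of rbcL are also given without it. PTAC3 is a nuclear gene, so plastid depth does not read its genotype, and neither label was checked by depth.

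In land plants rbcL is read from a strong promoter in the spacer that separates it from atpB, the gene for the beta subunit of the ATP synthase, which is transcribed in the opposite direction. The spacer side of rbcL therefore holds its promoter and the untranslated leader of its transcript. The gene is a textbook target of the plastid-encoded RNA polymerase, the bacterial-type enzyme that serves photosynthesis genes in green plastids, whereas a phage-type polymerase from the nucleus serves mainly housekeeping genes. PTAC3 is a protein found with the plastid-encoded polymerase in the transcriptionally active chromosome. The promoter and the start of transcription are not marked in the files used here, so positions are given as distances from the first base of the annotated gene. "Upstream" is the spacer side and "downstream" the side towards accD, the gene for a subunit of acetyl-CoA carboxylase.

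Mean depth was 54.5 to 3383 reads per base over the 20 libraries. Leaf input libraries 1 and 3 were alike over all bins (r = 0.94 of log2 depth), as were 2 and 4 (r = 0.78), but r between these pairs of libraries was −0.19 to 0.33, so leaf values are also given within each pair. Within each seedling group, r between libraries of one kind was 0.93 to 0.98. Depth is given below as a multiple of the mean depth of its library. A log2 ratio is the log2 of scaled IPOD depth minus that of scaled input depth, with 10% of the median bin of the library added to each. Libraries of equal number are set against each other for pair values. The labels do not say that they came from separate plants or batches, so p-values measure the spread between these samples. The libraries are bulk, so more protein on each plastid chromosome and protein on more of the chromosomes cannot be told apart.

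Mean IPOD depth at rbcL stood above input upstream of the gene, and the mean ratio there was higher in leaf and Col0 than in pTAC3 seedlings, with pairs that overlapped. Over the 300 bp upstream the log2 ratio averaged 0.62 ± 0.56 in leaf (SD, n = 4 pairs), 0.14 ± 0.19 in pTAC3 seedlings and 0.45 ± 0.14 in Col0 seedlings (SD, n = 3 pairs each), which are 1.54, 1.10 and 1.36 times the input. Over the gene body it averaged 0.18 ± 0.21 in leaf, −0.01 ± 0.05 in pTAC3 seedlings and 0.02 ± 0.07 in Col0 seedlings. Across the whole upstream window none of the 3 contrasts of IPOD with input passed an adjusted p of 0.05 in the unpaired limma fit. A single upstream bin, 1 of the 41, passed it in Col0 seedlings, where 1.99% of all bins were called higher and 1.21% lower. This count does not set rbcL apart from the genome. The difference between pTAC3 and Col0 seedlings did not pass in that unpaired fit. With the library number as a block the leaf window passed (adjusted p = 0.042 in limma), where 16.8% of all 300 bp windows beside genes were called higher.

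**Figure D1:**
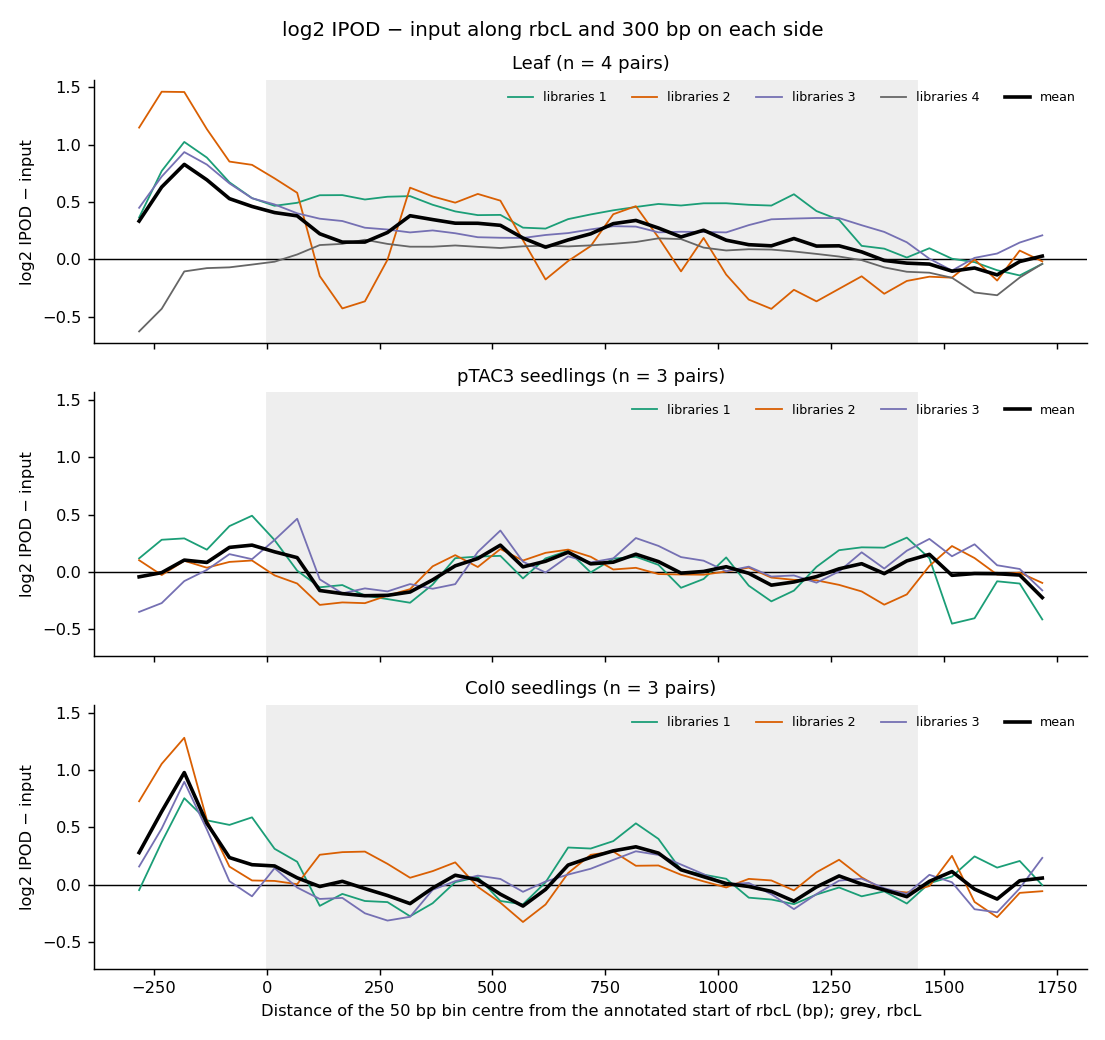
log2 IPOD − input of each pair of libraries (thin lines) and their mean (black) in 50 bp bins, against distance from the annotated start of rbcL, with the gene in grey. Leaf pairs 1 to 3 and all 3 Col0 pairs peak about 200 bp before the start, while leaf pair 4 and the 3 pTAC3 pairs do not.

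In leaf, scaled depth over the upstream 300 bp was 1.82, 1.72, 1.79 and 0.819 times the library mean in IPOD libraries 1 to 4, against 1.05, 0.704, 1.06 and 0.922 in input libraries 1 to 4. IPOD libraries 1 to 3 were above every input library, and IPOD library 4 was below 3 of the 4. The pair ratios were 0.74, 1.19, 0.70 and −0.15 on the log2 scale. The unpaired limma fit gave a difference of 0.62 (SE 0.25, adjusted p = 0.43 over 220 windows of 300 bp beside genes). With the library number as a block, which the likeness of equal-numbered leaf libraries calls for, the adjusted p was 0.042. In that blocked fit 16.8% of all such windows were called higher and 7.73% lower, against 0% and 0% without the block. Libraries 1 and 3 alone gave 0.72 (adjusted p = 1.7e-04 in limma, with 2 libraries a side and 35% of all windows called higher), while 2 and 4 alone gave 0.52 (adjusted p = 1.0). Of the 8 unpaired refits with 1 leaf library left out, only that without IPOD library 4 passed, at 0.87 (adjusted p = 0.016 in limma). The other 7 did not pass, with adjusted p of up to 0.85. The share of all windows called in the passing refit is not given here. The exact permutation test of the 4 against 4 libraries gave a two-sided p of 0.11, where 0.029 is the smallest it can give.

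In pTAC3 seedlings, upstream depth was 0.547, 0.592 and 0.665 times the library mean in IPOD libraries 1 to 3, against 0.412, 0.563 and 0.672 in input libraries 1 to 3. In Col0 seedlings it was 0.720, 0.749 and 0.657 in IPOD libraries 1 to 3, against 0.473, 0.488 and 0.521 in input libraries 1 to 3. The pTAC3 IPOD libraries lay within the range of their inputs, whereas every Col0 IPOD library lay above every Col0 input library. The pair ratios were 0.35, 0.067 and −0.0051 in pTAC3 seedlings and 0.53, 0.53 and 0.29 in Col0 seedlings.

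The limma fit over all 12 seedling libraries gave 0.14 (SE 0.14, adjusted p = 1.0) for pTAC3 and 0.45 (SE 0.14, adjusted p = 0.059) for Col0, where 5.91% of the 220 windows were called higher and 1.36% lower. The exact two-sided permutation p for Col0 was 0.10, the smallest that 3 against 3 allow. The fit shares 1 estimate of spread between the genotypes. In the 6 Col0 libraries alone the limma adjusted p was 4.4e-06, with 17.7% of all windows called higher. Without the Col0 IPOD library whose labels disagree the upstream Col0 value was 0.50 (adjusted p = 0.075 in limma).

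The order of the upstream log2 ratio was thus leaf, Col0, pTAC3, but neighbours in that order overlapped pair by pair. The leaf pairs ran from −0.15 to 1.19 and covered the Col0 range of 0.29 to 0.53. The pTAC3 pairs ran from −0.0051 to 0.35, and the highest of them lay above the lowest Col0 pair. Equal numbers were not taken as pairs in Col0, so this last overlap depends on how the Col0 libraries are numbered. Leaf and seedlings differed in age, tissue, growth and order of crosslinking, and were not tested against each other.

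**Figure D2:**
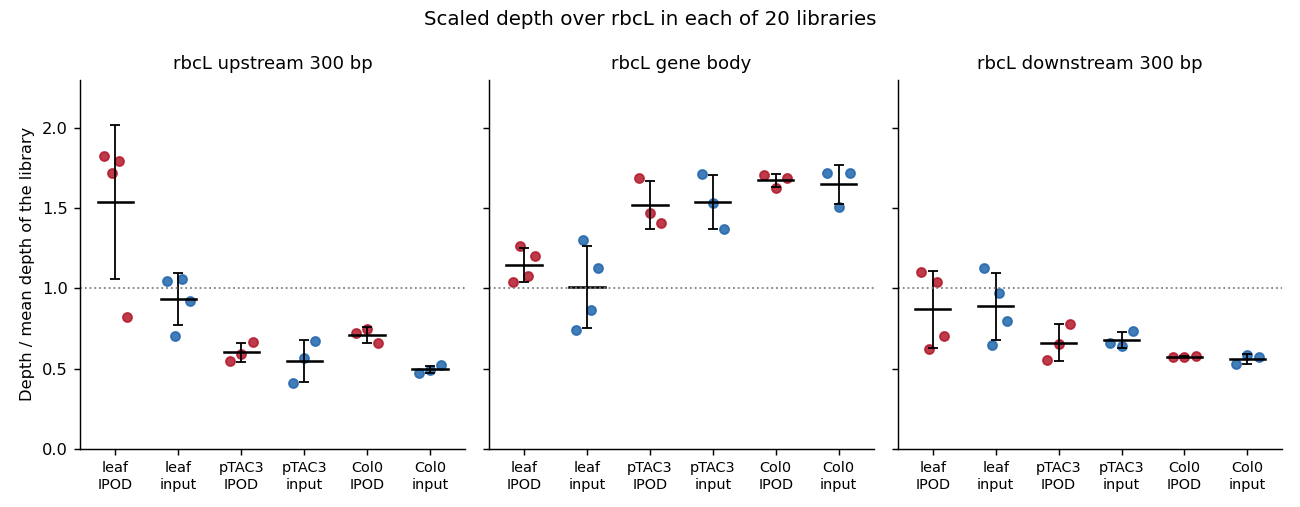
Depth divided by the library mean over the upstream 300 bp, the gene body and the downstream 300 bp of rbcL in each library (points), with the group mean and SD (bars). Upstream, the 3 Col0 IPOD libraries lie at 0.657 to 0.749 and their inputs at 0.473 to 0.521, and leaf IPOD library 4 lies apart at 0.819.

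The upstream ratio peaked at a similar place in 3 of the 4 leaf pairs and in all 3 Col0 pairs. In 50 bp windows moved by 1 bp, the highest log2 ratio of the whole region lay 196 to 147 bases before the start in leaf pair 1 (1.04), 231 to 182 bases before it in leaf pair 2 (1.54) and 196 to 147 bases before it in leaf pair 3 (0.95). In Col0 pairs 1, 2 and 3 it lay 212 to 163, 217 to 168 and 212 to 163 bases before the start, at 0.76, 1.29 and 0.90. These 6 windows all overlapped the stretch 196 to 182 bases before the start. In leaf pair 4 the highest window was in the gene body (0.19), and its highest upstream window was at −0.044. None of the 3 pTAC3 pairs had its highest window there: that of pair 1 lay 70 to 21 bases before the start (0.53), and those of pairs 2 and 3 lay downstream of and inside the gene (0.25 and 0.50).

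The bin at positions 54751 to 54800, from 207 to 158 bases before the start, held the highest mean ratio of the region in leaf and in Col0 seedlings. Its depth in leaf was 2.198, 2.81, 2.09 and 0.743 times the library mean in IPOD libraries 1 to 4, against 1.02, 0.972, 1.04 and 0.807 in input libraries 1 to 4. IPOD libraries 1 to 3 again stood above all inputs, and library 4 below them. Its depth was 0.402, 0.465 and 0.532 in pTAC3 IPOD libraries 1 to 3, against 0.315, 0.431 and 0.573 in pTAC3 input libraries 1 to 3. It was 0.809, 0.994 and 0.819 in Col0 IPOD libraries 1 to 3, against 0.446, 0.355 and 0.401 in Col0 input libraries 1 to 3. The Col0 IPOD values did not overlap those of their inputs or of any pTAC3 library.

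In this bin the log2 ratio was 0.83 ± 0.66 in leaf (SD, n = 4), 0.10 ± 0.19 in pTAC3 seedlings and 0.98 ± 0.27 in Col0 seedlings (SD, n = 3 each), the last being 1.97 times the input. It passed limma in Col0 (adjusted p = 0.0079 over 2564 bins) and was the 7th highest of all bins there. It was 1 of 41 rbcL bins called, all in Col0, where 1.99% of all bins were called higher and 1.21% lower. With libraries centred on their median bin these shares were 3.2% and 0.546%, and 5 of the 41 were called, all higher. Leaf and pTAC3 had 0 of 41 called, with 0% of all bins called in either direction. At an unadjusted p under 0.05, 3 of the 41 bins were higher in leaf, 0 in pTAC3 and 7 in Col0. Over all 2564 bins these counts were 80, 31 and 192. The Col0 call was lost without Col0 input library 2 or IPOD library 2, when 0 of 41 bins passed, and without the IPOD library whose labels disagree the bin had 1.02 (adjusted p = 0.016 in limma).

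Upstream of that bin and towards the gene the Col0 ratio fell away on both sides, at 0.64 ± 0.36 in the bin before it and 0.54 ± 0.05 in the bin after it (SD, n = 3). In steps of 100 bp the Col0 ratio was 0.58 ± 0.38 from 300 to 201 bases before the start, 0.71 ± 0.12 from 200 to 101 and 0.19 ± 0.33 over the last 100 (SD, n = 3). In leaf the same steps gave 0.54 ± 0.77, 0.75 ± 0.58 and 0.49 ± 0.38 (SD, n = 4), and over the last 100 bases the leaf and Col0 values differed by less than their SDs. In pTAC3 seedlings they gave −0.01 ± 0.28, 0.10 ± 0.12 and 0.23 ± 0.20 (SD, n = 3). The highest pTAC3 bin of the region, at positions 54901 to 54950, had 0.23 ± 0.22 and lay 57 to 8 bases before the start, where Col0 had 0.17 ± 0.36.

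Between genotypes, the upstream log2 ratio was 0.31 lower in pTAC3 than in Col0 seedlings (difference −0.31, SE 0.19, 95% interval −0.72 to 0.10, adjusted p = 0.47 in limma). Ratios were spread more narrowly in pTAC3 over the whole genome, at −0.18 to 0.22 over all 220 windows, against −0.49 to 0.90 in Col0. The rbcL window ranked 17th from the highest in pTAC3 and 13th in Col0, so its lower value in pTAC3 was not particular to rbcL. For the 220 windows 1.36% were called lower and 0% higher. The 3 called were the windows beside trnL (−0.88), trnV (−0.74) and the 16S ribosomal RNA gene rrn16S (−0.72). Each had an adjusted p of up to 0.096 in limma when 1 library was left out. Windows can overlap where genes lie close together, so the 3 calls need not be separate stretches. The pair ratios of pTAC3 and Col0 overlapped, and the exact permutation p over 3 against 3 ratios was 0.20. Both depend on setting equal numbers together, also in Col0. In the bin at 54751 to 54800 the difference was −0.87 (SE 0.24, 95% interval −1.38 to −0.36, adjusted p = 0.33 in limma), the 13th lowest of 2564 bins. There the pTAC3 ratios, at 0.29, 0.098 and −0.079, lay below all 3 Col0 ratios, at 0.75, 1.28 and 0.90. The exact p was 0.10, the smallest possible, and this bin was chosen for its Col0 value. In the unblocked limma fit no bin of the genome was called in this contrast (0% in either direction). Before adjustment, 95 of the 2564 bins were lower and 119 were higher at a p under 0.05. With the library number as a block the bin passed (adjusted p = 0.0012), as did the bins at 54701 to 54750 (−0.64) and 54801 to 54850 (−0.45), with adjusted p of 0.028 and 0.037 in limma, and the upstream window did not (adjusted p = 0.055). In that fit 5.11% of all bins were called lower and 2.15% higher. Its block set equal numbers together in both genotypes, although they were taken as pairs in pTAC3 but not in Col0 seedlings. Without the Col0 IPOD library whose labels disagree, the unblocked difference was −0.36 upstream (adjusted p = 0.44) and −0.91 in the bin (adjusted p = 0.27). Of the 12 refits with 1 library left out, only that without pTAC3 input library 1 passed in the bin (−1.06, adjusted p = 0.046 in limma). The other 11 had adjusted p of 0.26 to 0.84, with −0.69 (adjusted p = 0.42) without pTAC3 input library 3. The share of all bins called in the passing refit is not given here.

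**Figure D3:**
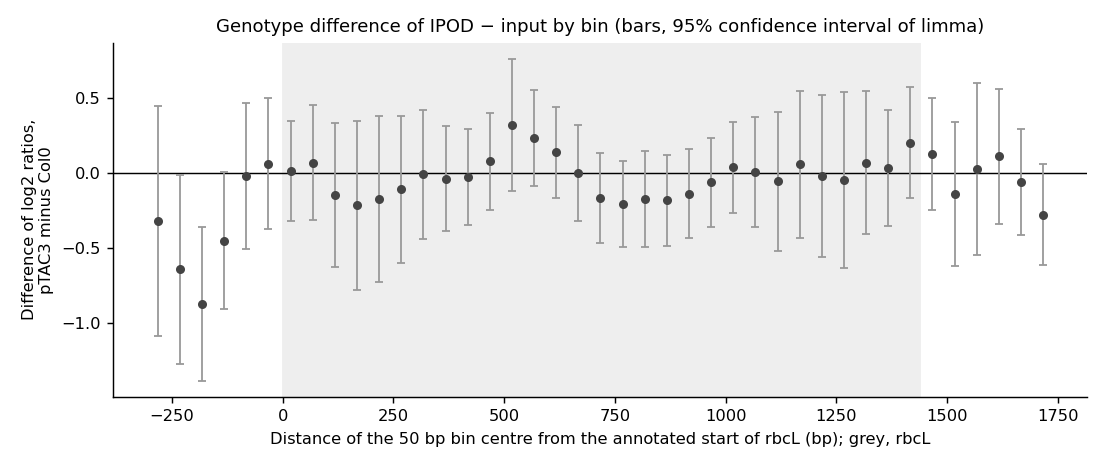
Difference of the log2 ratio, pTAC3 minus Col0 seedlings, in each of the 41 bins, with the 95% interval of limma, against distance from the annotated start of rbcL (gene in grey). The bin at −0.87 is the lowest of the region, and no bin passes the adjusted threshold without the block.

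Input depth also differed along the region and between plant groups. In the 6 bins wholly upstream, mean input depth was 0.692 to 1.04 times the library mean in leaf, 0.243 to 0.905 in pTAC3 and 0.132 to 0.878 in Col0 seedlings. In the 27 bins wholly inside the gene it was 0.709 to 1.59, 0.723 to 2.74 and 0.743 to 3.04. With the trend of each library on the input level of its plant group removed, an alternative chosen after seeing the data, the upstream ratio was 0.05 in pTAC3 and 0.44 in Col0 (adjusted p = 0.97 and 2.1e-04 in limma), and the difference between them was −0.40 (adjusted p = 0.016, with 14.1% of all windows called lower). A window of 150 bp gave 0.27 in Col0 and a difference of −0.07 (adjusted p = 0.25 and 0.96 in limma). The bin at 54751 to 54800 and those farther upstream lie outside it. Which bins account for the change was not tested.

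**Figure D4:**
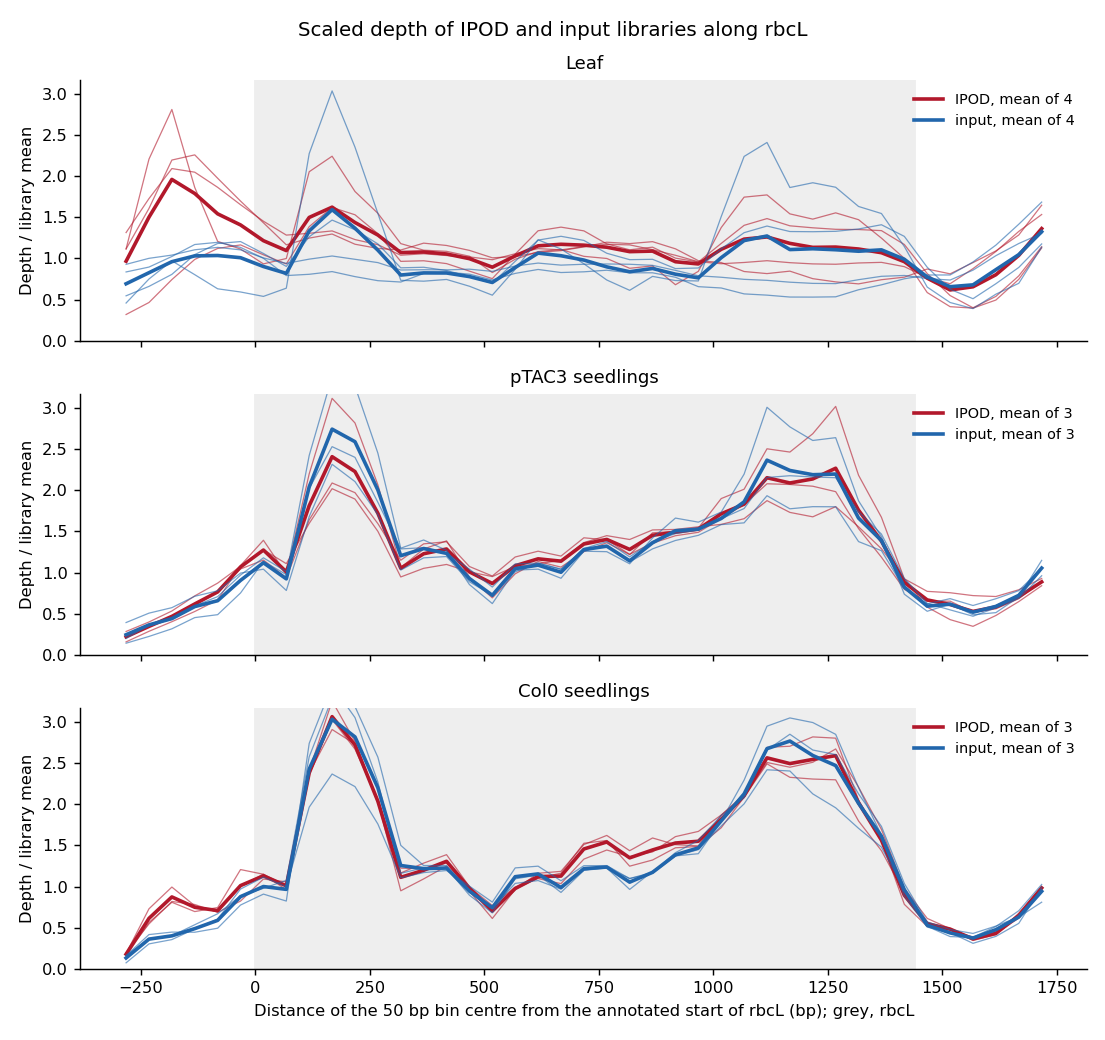
Depth divided by the library mean along rbcL in 50 bp bins, for IPOD and input libraries (thin lines) and their means (thick lines), with the gene in grey. In both seedling groups IPOD and input share peaks inside the gene of 2 to 3 times the library mean, and in Col0 they part upstream of the start.

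The gene body itself was close to its input in both seedling groups, whereas its leaf ratio had a wide interval. In leaf its depth was 1.04, 1.26, 1.08 and 1.20 times the library mean in IPOD libraries 1 to 4, against 0.742, 1.30, 0.862 and 1.13 in input libraries 1 to 4. The groups overlapped, and the pair ratios of 0.42 and 0.28 in libraries 1 and 3 stood above those of −0.051 and 0.086 in libraries 2 and 4. In limma the leaf ratio of 0.18 (SE 0.18, 95% interval −0.22 to 0.58) had an adjusted p of 0.65 over 111 genes, and of 0.16 with the block. Libraries 1 and 3 alone gave 0.35 (adjusted p = 0.0099, with 33.3% of all genes called higher) and libraries 2 and 4 alone gave 0.02 (adjusted p = 1.0).

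In pTAC3 seedlings gene body depth was 1.69, 1.47 and 1.41 in IPOD libraries 1 to 3, against 1.71, 1.53 and 1.37 in input libraries 1 to 3. In Col0 seedlings it was 1.70, 1.63 and 1.69 in IPOD libraries 1 to 3, against 1.72, 1.51 and 1.72 in input libraries 1 to 3. IPOD and input overlapped in both. The limma ratios were −0.01 and 0.02 (SE 0.09 each, adjusted p = 0.99 and 0.90), with intervals of −0.21 to 0.18 in pTAC3 and −0.18 to 0.21 in Col0. In Col0, 7.21% of genes were called higher and 3.6% lower (7.21% and 0.901% with libraries centred on their median bin), and in leaf and pTAC3 0% were. The genotype difference over the body was −0.03 (95% interval −0.30 to 0.25, adjusted p = 0.89 in limma). Without the Col0 IPOD library whose labels disagree the body had 0.01 in Col0 and −0.02 for the difference. Exact permutation p-values for the body were 0.37 in leaf, 0.90 in pTAC3 and 1 in Col0.

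Within the body the mean ratio varied between stretches, which were not tested against each other. In leaf the first and the middle 480 bases had 0.24 ± 0.20 and 0.23 ± 0.12, with all 4 pairs above 0 in each, and the last 480 had 0.10 ± 0.28 (SD, n = 4). In pTAC3 seedlings these stretches had −0.10 ± 0.05, 0.09 ± 0.06 and −0.01 ± 0.06, with all 3 pairs below 0 in the first and above 0 in the middle (SD, n = 3). In Col0 seedlings they had −0.01 ± 0.17, 0.14 ± 0.08 and −0.03 ± 0.06, with all 3 pairs above 0 in the middle (SD, n = 3). The middle stretch was thus above its input in all 10 pairs. It also had the lowest mean input of the 3 stretches in each group. In the first, middle and last stretch mean input was 1.04, 0.891 and 1.09 times the library mean in leaf. These were 1.64, 1.17 and 1.81 in pTAC3 and 1.74, 1.12 and 2.08 in Col0 seedlings.

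The highest Col0 bin of the body, at positions 55751 to 55800, spanned bases 794 to 843 of the gene and had 0.33 ± 0.19, where leaf had 0.34 ± 0.15 (n = 4) and pTAC3 0.15 ± 0.13 (n = 3). Its adjusted p was 0.11 in Col0, 0.76 in leaf and 1.0 in pTAC3 in limma. The lowest Col0 bin of the region, at 55501 to 55550 (bases 544 to 593), had −0.19 ± 0.13 there, where leaf had 0.19 ± 0.07 and pTAC3 0.04 ± 0.09. The bins with the lowest leaf and pTAC3 means lay downstream of the gene, at 56551 to 56600 (−0.14 ± 0.15, n = 4) and 56651 to 56700 (−0.22 ± 0.17, n = 3). In leaf 26 of the 27 bins inside the gene had a mean above 0, against 15 of 27 in pTAC3 and 14 of 27 in Col0.

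The contrast of the upstream window with the body was 0.44 in leaf (SE 0.35, adjusted p = 0.95), 0.15 in pTAC3 (SE 0.19, adjusted p = 0.99) and 0.43 in Col0 (SE 0.19, adjusted p = 0.20) in limma. In Col0, 5% of all such contrasts were called higher and 3.64% lower. Its genotype difference was −0.28 (SE 0.27, adjusted p = 0.81 in limma), where 0.455% of contrasts were called in each direction. Without the Col0 IPOD library whose labels disagree the contrast was 0.48 in Col0 and the difference −0.33 (adjusted p = 0.24 and 0.74 in limma). Downstream of the gene the ratio was −0.05 ± 0.10 in leaf, −0.03 ± 0.17 in pTAC3 and 0.02 ± 0.08 in Col0 (n = 4, 3 and 3), and IPOD overlapped input in all 3.

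Set among the other genes, the upstream window of rbcL stood high and its body did not. It ranked 13th of 220 windows in leaf, 17th in pTAC3 and 13th in Col0, where the medians over all windows were −0.06, 0.02 and −0.03. The body ranked 36th, 77th and 43rd of 111 genes in leaf, pTAC3 and Col0. For the genotype difference the upstream window was 28th from the lowest of 220 and the body 34th from the lowest of 111.

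**Figure D5:**
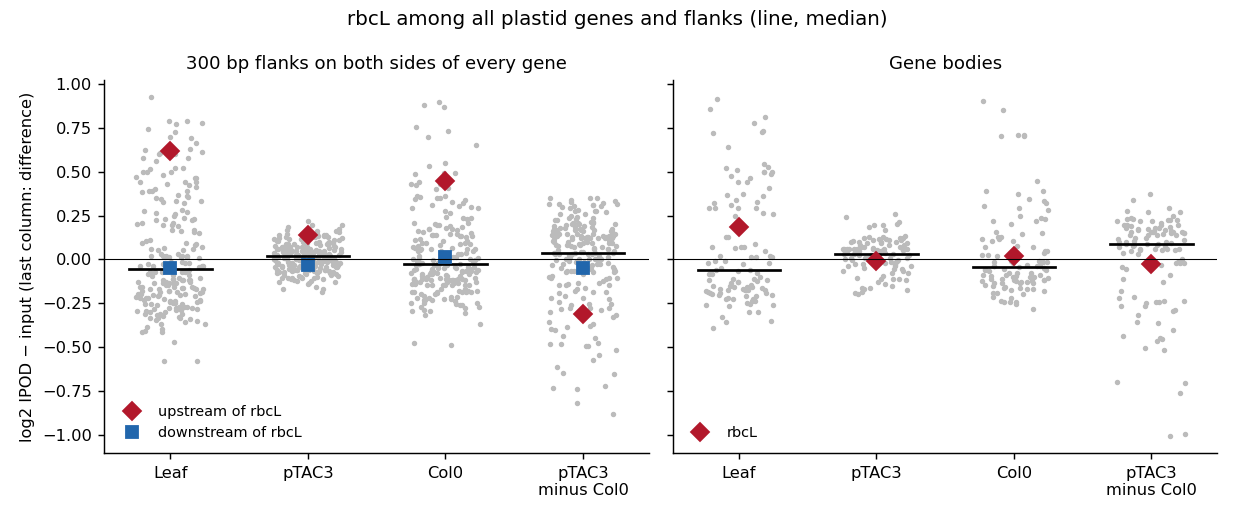
log2 IPOD − input of all windows of 300 bp beside genes (left) and of all gene bodies (right) in leaf, pTAC3 and Col0 seedlings, and the difference pTAC3 minus Col0, with the median as a line. The upstream window of rbcL (red) lies near the top in each plant group, at 0.62, 0.14 and 0.45, and its body lies inside the main cloud.

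The occupancy upstream of rbcL did not extend to the atpB end of the spacer. The 300 bp next to atpB on the spacer side had a ratio of −0.26 ± 0.05 in leaf, −0.02 ± 0.10 in pTAC3 and −0.22 ± 0.12 in Col0 (n = 4, 3 and 3), and was not called in any (adjusted p = 0.55, 1.0 and 0.27 in limma). The body of atpB had −0.18 ± 0.18, −0.01 ± 0.07 and −0.17 ± 0.14, and atpE, for the epsilon subunit of the same synthase, had −0.05 ± 0.04, −0.01 ± 0.16 and −0.17 ± 0.05. On the other side accD had −0.24 ± 0.10 in leaf, −0.03 ± 0.07 in pTAC3 and −0.13 ± 0.04 in Col0. None of these bodies was called. The 300 bp beyond accD were called lower in Col0 (−0.37 ± 0.05, n = 3, adjusted p = 0.015 in limma). That call was lost without Col0 input library 2 or 3 or IPOD library 1 (adjusted p = 0.076, 0.064 and 0.062), and without IPOD library 3 the adjusted p was 0.048.

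Among 10 genes listed as targets of the plastid-encoded polymerase (psbA, psbB, psbC, psbD, psbE, psaA, psaB, petB, atpB and rbcL) none was called in leaf, pTAC3, Col0 or the genotype difference in the unpaired limma fits. The median of their body ratios was 0.06 in leaf, 0.04 in pTAC3 and −0.10 in Col0, where all 111 genes had −0.06, 0.03 and −0.05. rbcL stood above the list median in leaf and Col0 and below it in pTAC3. psbA, for the D1 protein of photosystem II, had 0.73 ± 0.38 in leaf (adjusted p = 0.24, and 0.027 with the block in limma), 0.02 ± 0.07 in pTAC3 and 0.15 ± 0.02 in Col0. With the block in leaf, psbA was the 1 listed gene called, where 14.4% of all genes were called higher and 2.7% lower.

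Among 8 genes listed for the nuclear-encoded polymerase (rpoB, rpoC1, rpoC2, accD, ycf1, ycf2, clpP and rpl23), 1 was called lower in Col0 and none in leaf, pTAC3 or the genotype difference. It was ycf2, for a subunit of the plastid protein import motor, at −0.24 ± 0.06 (n = 3, adjusted p = 0.030 in limma), where 3.6% of all genes were called lower. Without IPOD library 3 its adjusted p was 0.034, and the call was lost without any 1 of the other 5 Col0 libraries (adjusted p = 0.084 to 0.14). With the block in leaf ycf1 was called lower (−0.36 ± 0.09, n = 4, adjusted p = 0.027 in limma). The list medians were −0.26 in leaf, 0.02 in pTAC3 and −0.16 in Col0, and all 8 were below 0 in leaf and Col0, where 62 and 68 of all 111 genes were. rpoB, for the beta subunit of the plastid-encoded polymerase, had −0.26 ± 0.22, 0.04 ± 0.05 and −0.13 ± 0.04.

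The genes whose body ratios were most like those of rbcL over the 10 pairs were psbD, for the D2 protein of photosystem II, psbE, for a subunit of cytochrome b559, and rps14, for a protein of the small ribosomal subunit. Their root mean square difference from rbcL was 0.11, 0.13 and 0.13 on the log2 scale, against a median of 0.29 over all genes. psbD averaged 0.26, 0.06 and −0.08 in leaf, pTAC3 and Col0, psbE 0.07, 0.06 and −0.05, and rps14 0.30, −0.03 and −0.08. These values share libraries and their scaling, and describe likeness only.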

How the data were processed

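Per the file headers and values, the authors deposited read depth per base of the plastid genome (154477 positions on TAIR10), a coverage signal in whole numbers that was not scaled between libraries. The submitters' processing notes name Trim Galore 0.4.1, Bowtie2 2.2.8.9, bedtools 2.25.0 and TAIR10. How duplicates and reads shared by the inverted repeats were treated is not given in the sources used here. A read covers many neighbouring bases, so depth is not a count of reads and no count model was used.

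Depth per gene, window or bin was scaled by mean library depth over bins, without the second repeat copy. After adding 10% of the median bin, log2 values were fitted with limma 3.58.1 (lmFit and eBayes, R 4.3.3), leaf alone and the 12 seedling libraries together, with Benjamini-Hochberg adjustment over 111 genes, 220 windows or 2564 bins. A feature was called at an adjusted p under 0.05. Genotype differences are (pTAC3 IPOD minus input) minus (Col0 IPOD minus input). The fits were tested on simulated data. Exact permutation tests used scipy 1.17.1.

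Gene spans came from a RefSeq table of TAIR10.1 without strand, so windows were taken on both sides of every gene, and none of its coordinates is printed. To test whether equal numbers pair libraries, deviations from the group means were correlated over bins. This gave r = 0.84, 0.81, 0.92 and 0.63 in leaf and 0.77, 0.23 and 0.75 in pTAC3, taken as pairs, and 0.26, 0.22 and 0.023 in Col0, not taken as pairs. Among libraries of the same plant group and kind no 2 were copies, with at most 1.37% of positions equal. Libraries of different groups or kinds were not compared in this way.

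rbcL, the gene lists and the tests were chosen with earlier results of these data known. Named were rbcL, its neighbours, the 3 genes most like it, list members that passed with psbA and rpoB, and the bins with the highest and lowest mean or called in each plant group. The bins before and after the called bin, the highest bin of the gene body, and trnL, trnV, rrn16S and the window beyond accD were singled out with their values known. The search for promoter motifs was not run, since no plastid sequence was used here.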

Additional observations from a re-analysis of the deposited data

Results flagged for a closer look

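Among the 4 leaf IPOD libraries, library 4 lay far from the others upstream of rbcL, at 0.819 times the library mean beside 1.82, 1.72 and 1.79 in libraries 1 to 3. Its gap to the nearest library was 0.909 of the whole range on the log2 scale.

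In the bin at positions 55501 to 55550, inside the gene, all 4 leaf pairs had a ratio above 0 (0.28, 0.17, 0.19 and 0.11) and all 3 Col0 seedling pairs one below 0 (−0.17, −0.33 and −0.06). The means differed by 0.37 on the log2 scale. This difference was not tested, and leaf and seedlings also differed in age, growth and crosslinking.

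In the bin at 56651 to 56700, downstream of the gene, leaf pair 3 stood apart at 0.21, beside −0.04, −0.02 and −0.04 in pairs 1, 2 and 4, with a gap of 0.913 of the range.

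By chance about 1 in 20 groups of 4 would be set apart in this way.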

How the results depend on the processing

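With the replicate block, upstream ratios of 0.62 in leaf and 0.45 in Col0 passed limma's threshold, as did the Col0 contrast of upstream with body (0.43). The block also raised the called bins of the 41 to 6 in Col0 (11.1% of all bins called higher) and to 3, all lower, in the genotype difference (5.11% called lower). The numbers of Col0 libraries were not taken as pairs, since IPOD library 3 was more like input 2 than its own. Among listed genes the block called 1 target of the plastid-encoded polymerase higher in Col0 and 1 higher in the difference, and 5 of the nuclear-encoded one lower in Col0 and 4 higher in the difference, where 19.8% of all genes were called higher and 12.6% lower in Col0, and 12.6% higher and 16.2% lower in the difference. It changed no other call of rbcL.

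Under other settings the upstream Col0 ratio passed at 0.53 with libraries centred on their median bin, 0.49 scaled to the large single-copy region, 0.45 with limma-trend and robust variances, 0.45 in Col0 libraries alone and 0.44 with the input-level trend removed. Called Col0 bins then numbered 5, 2, 3, 4 and 11, all higher but 1 of the 11, where 3.2%, 2.69%, 3.94%, 7.57% and 8.15% of all bins were called higher, and 3 in bins of 25 bp (1.79%). Col0 libraries alone also passed the contrast with the body (0.43), as did removal of the trend (0.30), which was chosen after seeing the data. That removal gave a called genotype difference of −0.40 upstream, 3 of the 41 bins called lower in that difference (3.39% of all bins) and a pTAC3 body ratio of 0.044 in place of −0.01. Leaf libraries 1 and 3 alone gave 0.35 in the body, 0.72 upstream, 0.37 for the contrast and 31 called bins, all higher (21.6% of all bins called higher). Centring on the median bin shifted every leaf ratio by 0.11 and every genotype difference by −0.13.

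When each library was left out in turn, the body ratio was 0.063 to 0.30 in leaf, −0.086 to 0.061 in pTAC3, −0.040 to 0.048 in Col0 and −0.10 to 0.043 for their difference. The upstream ratio was 0.49 to 0.87 in leaf, −0.035 to 0.28 in pTAC3, 0.41 to 0.50 in Col0 and −0.48 to −0.17 for the difference. The contrast with the body was 0.19 to 0.72 in leaf, −0.096 to 0.37 in pTAC3, 0.37 to 0.49 in Col0 and −0.53 to −0.064 for the difference. Called bins were 0 to 1 in leaf, 0 to 3 in Col0 and 0 to 1 for the difference. The upstream Col0 ratio passed without pTAC3 input library 1 or 3 (adjusted p = 0.0060 and 0.015 in limma, with 3 called bins each), and the Col0 contrast without pTAC3 input library 1 (adjusted p = 0.046), which changes only the shared spread. Called bins were 2 in Col0 without pTAC3 IPOD library 1, 1 in the difference without pTAC3 input library 1 and 1 in leaf without IPOD library 4. The shares of all bins called in these refits are not given here, so these counts do not set rbcL apart from the genome. Without pTAC3 input library 1 the upstream pTAC3 ratio turned to −0.035. The cause of the other changes was not tested. The lowest depth behind an rbcL bin was 14.9 reads per base, in the bin farthest upstream, which limits the precision there.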
